A study of Mus musculus with 6 samples.

Results

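The genes described here belong to ISG15 conjugation and the interferon response, followed in circulating red cells: Isg15, Uba7, Ube2l6, Herc6, Usp18, Irf7, Ifit1 and Ifit3. They were taken by mouse symbol from per-library count files that list 27179 genes, and all 8 were found. The RNA came from purified erythrocytes of individual BALB/c males, 3 with 1 C587R copy of Nxf1 (Nxf1+/C587R, called mutant here) and 3 wild-type littermates (Nxf1+/+). The NXF1 protein carries messenger RNA out of the nucleus. The labels number 3 batches, each with 1 mutant and 1 wild-type library, and libraries are named by that number. The labels name no treatment.

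ISG15 is a small relative of ubiquitin whose gene is induced by type I interferon. Like ubiquitin, it is joined to other proteins by a chain of enzymes. UBA7 activates it, UBE2L6 carries it as the conjugating enzyme, a HERC ligase (HERC6 in mice) attaches it, and USP18 removes it. IRF7 is the transcription factor that drives interferon alpha genes, IFIT1 binds foreign RNA, and IFIT3 is a partner of IFIT1. Circulating red cells have no nucleus, so their RNA is what is left from erythroid precursors.

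The 300 bases around the annotated starts were searched for the DNA elements through which interferon acts, because the members differ in them. RefSeq (GRCm38.p6) gave a window, 250 bases before to 50 bases from the start, for 7 members, and Usp18 is named only. The interferon-stimulated response element was searched as GAAANNGAAA on both strands. It was present in 3 windows, those of Isg15, Ifit1 and Ifit3, and in 3.44% of 32851 windows of all genes. Its letters were not in the windows of Ube2l6, Uba7, Herc6 or Irf7. The gamma-activated site, searched as TTCNNNGAA on both strands, was in 0 members' windows and in 8.3% of all windows. In Isg15 (chr4:156200769-156201068, minus strand), 3 overlapping matches ran from 78 to 57 bases upstream of the start, on the gene's own strand. In Ifit1 (chr19:34640639-34640938, plus strand) the matches lay 104 to 95 and 85 to 76 bases upstream, and in Ifit3 (chr19:34583279-34583578, plus strand) 156 to 147 and 122 to 113, all read on the opposite strand. The windows with matches, in capitals, are shown beside that of Ube2l6 (chr2:84798578-84798877, plus strand), the most abundant member, which had none. The Ifit3 window surrounds a start inside the annotated span of the gene.
Isg15: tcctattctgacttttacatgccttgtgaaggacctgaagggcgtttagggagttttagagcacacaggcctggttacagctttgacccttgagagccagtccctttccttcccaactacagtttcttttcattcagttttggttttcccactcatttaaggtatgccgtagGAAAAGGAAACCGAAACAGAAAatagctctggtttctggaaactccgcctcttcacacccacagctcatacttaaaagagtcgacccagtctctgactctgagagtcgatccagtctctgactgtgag
Ifit1: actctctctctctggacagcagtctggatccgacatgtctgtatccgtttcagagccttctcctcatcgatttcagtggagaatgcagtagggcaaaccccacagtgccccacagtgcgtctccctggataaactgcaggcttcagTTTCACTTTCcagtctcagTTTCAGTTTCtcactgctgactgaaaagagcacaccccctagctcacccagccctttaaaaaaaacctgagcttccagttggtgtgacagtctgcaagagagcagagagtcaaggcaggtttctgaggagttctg
Ifit3: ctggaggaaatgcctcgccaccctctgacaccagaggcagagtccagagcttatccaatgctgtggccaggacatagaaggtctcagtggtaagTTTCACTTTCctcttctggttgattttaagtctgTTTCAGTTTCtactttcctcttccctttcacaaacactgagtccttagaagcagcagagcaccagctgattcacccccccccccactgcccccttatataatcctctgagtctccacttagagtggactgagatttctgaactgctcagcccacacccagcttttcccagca
Ube2l6: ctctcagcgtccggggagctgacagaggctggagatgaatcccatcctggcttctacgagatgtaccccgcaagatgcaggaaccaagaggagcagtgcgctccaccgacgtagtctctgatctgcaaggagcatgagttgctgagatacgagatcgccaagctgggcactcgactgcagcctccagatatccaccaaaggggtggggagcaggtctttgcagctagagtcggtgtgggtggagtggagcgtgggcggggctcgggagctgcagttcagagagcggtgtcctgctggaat
A match describes the letters only, and binding was not measured here.

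The libraries held 14636739 to 15790336 counts, of which the globin genes took 88.1% to 89.3%. Levels are given in CPM, where library totals are brought to one common size with TMM factors, unless total counts are named. The factors were 0.720, 0.780 and 1.06 in mutants 1, 2 and 3 and 1.23, 1.11 and 1.23 in wild type 1, 2 and 3, so the scaling raised the mutant values relative to wild type. With total counts alone, the median log2 fold change of the 2823 genes tested was −0.53, against −0.06 with TMM. Nxf1 itself had 9, 7 and 11 counts in mutants 1, 2 and 3, and 15, 10 and 20 in wild type 1, 2 and 3 (edgeR log2 fold change −0.21, SE 0.38, adjusted p = 0.850). These counts do not check the allele, which changes 1 amino acid. Wild type 1 stood apart in exocrine pancreas transcripts, whose 10 listed genes had 323 counts there and 0 and 2 in wild type 2 and 3, against 1, 1 and 2 in mutants 1, 2 and 3. Of 15 listed red cell markers 12 were matched and all 12 passed the filter for testing. All 12 hepatocyte markers passed too, so passing does not tell the cell type. By abundance, the labelled cell type fits the globin share and Alas2, the first enzyme of red cell haem synthesis. Alas2 ranked 6 among all genes in each library.

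The members covered a very wide range of levels. Per kilobase of gene length (TMM-scaled), Ube2l6 averaged 5154 CPM in mutants and 2953 CPM in wild type, and it ranked 8 among all genes in each of the 6 libraries. Isg15 followed with 37.0 CPM per kilobase in mutants and 57.6 in wild type, and ranked 104 to 123 in mutants and 68 to 96 in wild type. Irf7 had 11.6 CPM per kilobase in mutants and 14.8 in wild type. The ligase, the activating enzyme and the protease of the pathway were far lower. Uba7 had 1.15 and 1.17 CPM per kilobase in mutants and wild type, Usp18 0.291 and 0.283, and Herc6 0.0837 and 0.163. Ifit1 had 1.05 and 1.35, and Ifit3 0.0356 and 0.0377. The order Ube2l6, Isg15, Irf7, then Uba7 and Ifit1, then Usp18, Herc6 and Ifit3 held in 6 of 6 libraries. Uba7 and Ifit1 changed places, with Ifit1 above Uba7 in 4 of 6, and the ranges of Herc6 and Ifit3 overlapped. Thus Ube2l6 was abundant next to little RNA for its partner enzymes, and it made up 99.2% ± 0.236 of the members' raw counts in mutants and 98.1% ± 0.575 in wild type (3 libraries each, SD).

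**Figure D1:**
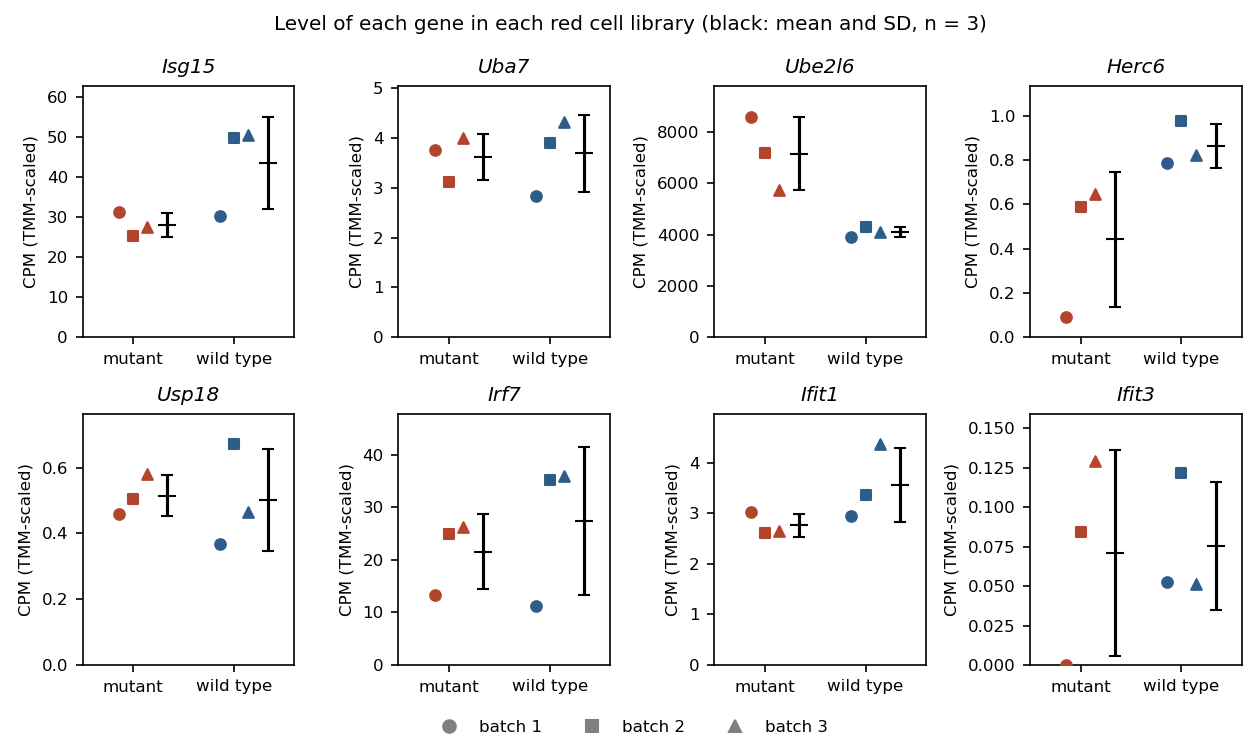
TMM-scaled CPM of each of the 8 genes (y axis, linear, own scale per panel) in mutant and wild-type libraries, with 1 point per library shaped by batch and the mean and SD in black. Ube2l6 is higher in all 3 mutants, at 5719 to 8570 CPM against 3894 to 4279 CPM, while Isg15 in wild-type library 1 lies within the mutant range and Irf7 there is the lowest of the 6 libraries.

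Ube2l6, the conjugating enzyme (chr2:84798828-84810003), was higher in mutant red cells. It had 8570, 7157 and 5719 CPM in mutants 1, 2 and 3, against 3894, 4279 and 4115 CPM in wild type 1, 2 and 3. The groups did not overlap, and the mutants were more spread, at 7149 ± 1425 CPM against 4096 ± 193 CPM (SD, n = 3 each). The fold change was 1.745 (log2 0.80, SE 0.17, edgeR adjusted p = 0.00445). It was the 1 of 6 tested members called higher, where 5.99% of all genes tested were called higher. Groups without overlap and higher in the mutant were seen for 12.3% of all genes tested. Relative to total counts it had 6168, 5583 and 6054 CPM in mutants and 4784, 4767 and 5058 CPM in wild type. That log2 fold change was 0.29 (edgeR adjusted p = 0.00873), and 4.07% of genes were called higher with total counts. So the direction held under both scalings, while the size did not. The call ended without mutant 1, mutant 2 or wild type 3 (log2 0.72, 0.86 and 0.81, edgeR adjusted p = 0.0537, 0.0545 and 0.0509). It also ended without batch 1 or batch 2 (log2 0.68 and 0.87, edgeR adjusted p = 0.179 and 0.120), fits with 2 libraries a group.

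Isg15, the modifier itself (chr4:156199424-156200818), was not higher in mutants as its conjugating enzyme was. It had 31.2, 25.1 and 27.6 CPM in mutants 1, 2 and 3, against 30.4, 49.7 and 50.5 CPM in wild type 1, 2 and 3. Wild type 1 lay among the mutants and the other two wild-type libraries lay well above them. The log2 fold change of −0.64 (SE 0.20, 95% interval −1.02 to −0.25) missed the threshold (edgeR adjusted p = 0.0595), so 0 of 6 tested members were called lower, where 1.06% of all genes were. An unadjusted p under 0.05 was found for 2 of the 6, Ube2l6 and Isg15, and for 18.5% of all genes tested, and DESeq2 also called 0 lower. With batch as a term, Isg15 was called lower (log2 −0.61, edgeR adjusted p = 0.0177) and Ube2l6 stayed higher (adjusted p = 0.00125), while 2.13% of all genes were called lower and 6.87% higher. DESeq2 with the same term did not call Isg15 (adjusted p = 0.364). Without wild type 1 its log2 fold change was −0.84 (edgeR adjusted p = 0.00230), and without batch 1 it was −0.88 (adjusted p = 0.0118). Relative to total counts the groups did not overlap, with 22.5, 19.6 and 29.2 CPM in mutants and 37.3, 55.3 and 62.1 CPM in wild type. On that scale 31.5% of all genes tested were lower without overlap. There Isg15 was called lower (log2 −1.12, edgeR adjusted p = 0.00162), among 8.68% of all genes called lower with total counts. In bulk red cells, fewer cells of a kind and less RNA per cell cannot be told apart. The non-coding gene Gm46878 overlaps Isg15, and the strand setting of the counting is not given in the sources used here.

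Irf7, the interferon-regulatory transcription factor (chr7:141263183-141266499), was lowest in batch 1 in both groups. It had 13.4, 25.0 and 26.3 CPM in mutants 1, 2 and 3, against 11.2, 35.1 and 36.0 CPM in wild type 1, 2 and 3. The libraries of batches 2 and 3 were at least 24.97 CPM, and the groups overlapped. The means were 21.6 ± 7.12 CPM in mutants and 27.4 ± 14.1 CPM in wild type (3 libraries each, SD). The log2 fold change was −0.34 with a large error (SE 0.53, edgeR adjusted p = 0.829). Single libraries moved it, to −0.041 without mutant 1, −0.11 without wild type 2, −0.10 without wild type 3 and −0.72 without wild type 1 (edgeR adjusted p = 0.988, 0.936, 0.970 and 0.0882). Tfrc, the transferrin receptor that marks young reticulocytes, was also lower in wild type 1 than in wild type 2 and 3. All mutants lay below wild type 2 and 3 in Tfrc, while mutants 1 and 3 lay above wild type 1 and mutant 2 below it. It had 9.16, 5.05 and 15.9 CPM in mutants 1, 2 and 3, against 7.62, 35.2 and 36.4 CPM in wild type 1, 2 and 3. By the measure of likeness described below, Tfrc ranked only 408 of 459 genes in likeness to Isg15. The part of Tfrc in the Isg15 and Irf7 values was not tested.

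Herc6, the ligase (chr6:57580992-57665136), was close to the detection limit. It had 1, 7 and 10 counts in mutants 1, 2 and 3, against 15, 16 and 16 counts in wild type 1, 2 and 3, while a count of 0 allows up to 3 counts. The groups did not overlap as CPM, at 0.442 ± 0.305 in mutants and 0.863 ± 0.0999 in wild type (3 libraries each, SD), and 11.1% of all genes were lower without overlap. Its log2 fold change was −0.88 (SE 0.47), short of the threshold (edgeR adjusted p = 0.336), and −0.41 without mutant 1, the library with 1 count (adjusted p = 0.783). The pseudogene Gm19244 overlaps Herc6. Uba7, the activating enzyme (chr9:107975567-107984056), had 3.76, 3.11 and 4.0 CPM in mutants and 2.84, 3.91 and 4.33 CPM in wild type, with the groups fully overlapping. Its log2 fold change was −0.022 (SE 0.24, 95% interval −0.50 to 0.46, edgeR adjusted p = 0.976), and its sign turned with RLE scaling. Usp18, the protease (chr6:121245906-121270917), had 5, 6 and 9 counts in mutants and 7, 11 and 9 counts in wild type and did not pass the filter on low counts. Fitted without a filter, its log2 fold change was 0.10 (SE 0.53, edgeR adjusted p = 0.948), and the exact permutation p of its CPM was 0.9 (n = 3 each). The non-coding gene Gm44148 overlaps Usp18.

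Ifit1 (chr19:34640889-34650009) was low but present in every library. It had 3.02, 2.61 and 2.65 CPM in mutants 1, 2 and 3, against 2.94, 3.36 and 4.38 CPM in wild type 1, 2 and 3. Wild type 1 again fell within the mutant range. The log2 fold change was −0.37 (SE 0.25, edgeR adjusted p = 0.493). Relative to total counts the groups did not overlap and the log2 fold change was −0.86 (edgeR adjusted p = 0.0685). The annotation of Ifit1bl1 overlaps Ifit1, and whether they share reads was not tested. Ifit3 (chr19:34583119-34588982) had 0, 1 and 2 counts in mutants and 1, 2 and 1 counts in wild type, at or under the floor of 3 counts in each library. No fold is given for it, and its counts depend on how reads shared with its near-identical copy Ifit3b were handled. With total counts, 3 members were lower without overlap, namely Isg15, Herc6 and Ifit1, against 31.5% of all genes tested. On that scale the median gene itself stood at −0.53.

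Within batches Ube2l6 again stood apart from the other members. With TMM scaling, Ube2l6 was higher in the mutant by log2 1.14, 0.74 and 0.48 in batches 1, 2 and 3. Isg15 differed by 0.041, −0.98 and −0.87, Irf7 by 0.26, −0.49 and −0.45, and Ifit1 by 0.038, −0.35 and −0.70. Uba7 differed by 0.39, −0.32 and −0.11, and Herc6 by −2.06, −0.62 and −0.30. Thus Isg15, Uba7, Irf7 and Ifit1 were level or higher in the mutant of batch 1 and lower in batches 2 and 3, a pattern of 4 of 6 tested members and 11.7% of all genes tested. Lower values in all 3 batches were seen for 1 member, Herc6, and for 20.3% of all genes. The median of all genes tested was −0.060, −0.060 and 0.0097 in the 3 batches.

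With total counts the batch 1 differences turned negative. Isg15 then differed by log2 −0.73, −1.49 and −1.09 in batches 1, 2 and 3, and Irf7 by −0.51, −1.0 and −0.66. In all, 5 of the 6 tested members were lower in all 3 batches, where 50.5% of all genes tested were. Ube2l6 was the exception, higher by 0.37, 0.23 and 0.26. The median gene stood at −0.76, −0.53 and −0.19, so on this scale too Isg15 lay below the median gene in batches 2 and 3 and close to it in batch 1. Ube2l6 lay above the median gene in every batch on both scales. A rise with TMM was not particular to it. The more abundant Hbb-bs, Hbb-b1, Hba-a1, Hba-a2 and Alas2 had log2 fold changes of 0.63, 0.54, 0.48, 0.48 and 0.41. Of these only Hbb-bs was called (edgeR adjusted p = 0.0492), and the less abundant Bpgm had 0.058. With total counts the same 5 genes had 0.11, 0.027, −0.038, −0.042 and −0.10, against 0.29 for Ube2l6.

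**Figure D2:**
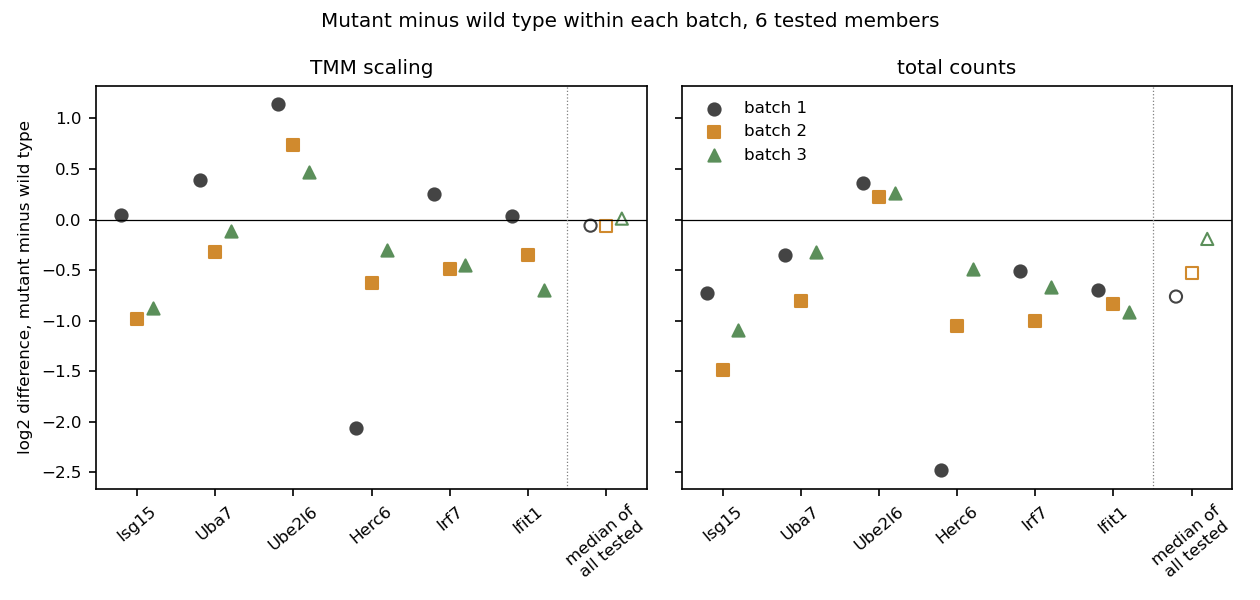
Log2 difference between the mutant and the wild-type library of each batch (y axis) for the 6 tested genes, with TMM scaling at left and total counts at right, and open symbols for the median of all 2823 genes tested. Ube2l6 is above 0 in all 3 batches under both scalings, and Isg15, Uba7, Irf7 and Ifit1 are above 0 in batch 1 only with TMM.

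Ratios of raw counts within a library do not depend on the scaling between libraries. The ratio of Ube2l6 to Isg15 was 274, 285 and 207.5 in mutants 1, 2 and 3, against 128, 86.2 and 81.4 in wild type 1, 2 and 3. Every mutant exceeded every wild-type library, with means of 255.5 ± 41.9 and 98.6 ± 25.8 (SD, n = 3 each). On the log2 scale the ratio was 1.39 higher in mutants, and 1.10, 1.72 and 1.35 higher within batches 1, 2 and 3. The exact two-sided permutation p was 0.1, the smallest that 3 against 3 libraries can give, and the exact sign-flip p over batches was 0.25, also the smallest possible.

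The ratio of Isg15 to Irf7 was highest in batch 1 in both groups. It was 2.34, 1.01 and 1.05 in mutants 1, 2 and 3, against 2.71, 1.41 and 1.41 in wild type 1, 2 and 3. The groups overlapped, and within every batch the mutant was the lower by 0.378, 0.407 and 0.359. The exact permutation p was 0.5 (n = 3 each), and the exact sign-flip p over batches was 0.25. Ube2l6 to Irf7 also overlapped, at 641, 287 and 217 in mutants and 348, 122 and 114 in wild type (exact permutation p of the log2 ratio = 0.3, n = 3 each). Within batches 1, 2 and 3 the log2 ratio of Ube2l6 to Irf7 was higher in the mutant by 0.881, 1.235 and 0.925 (exact sign-flip p = 0.25). Of the 3 ratios, only that of Ube2l6 to Isg15 separated the genotypes without overlap, while all 3 kept 1 direction within every batch.

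**Figure D3:**
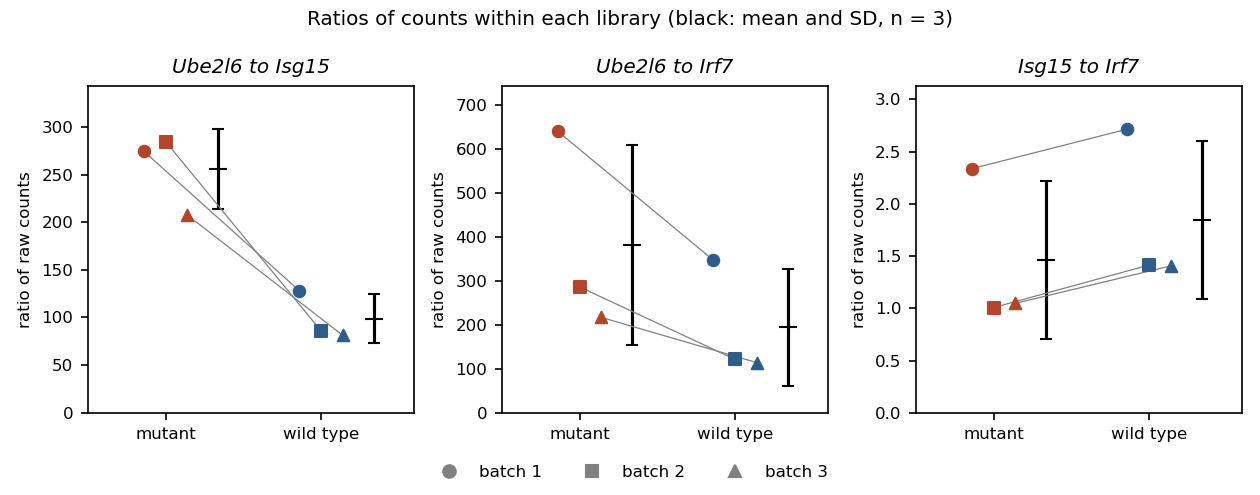
Ratios of raw counts (y axes) of Ube2l6 to Isg15, Ube2l6 to Irf7 and Isg15 to Irf7 in each library, with grey lines joining the mutant and wild-type library of a batch and the mean and SD in black. The first ratio is 207.5 to 285 in mutants and 81.4 to 128 in wild type, with no overlap, and batch 1 lies highest in both groups in the other two panels.

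Summed over the 8 members, the level was 8622, 7214 and 5781 CPM in mutants 1, 2 and 3, against 3942, 4373 and 4212 CPM in wild type 1, 2 and 3. The means differed by 3030 CPM, with SDs of 1420 CPM in mutants and 217.6 CPM in wild type (3 libraries each). The exact permutation p of the difference in means was 0.1, which is the lowest it can give. With total counts the difference was 1020 CPM. This sum is almost all Ube2l6. Without it the sum was 51.9, 57.0 and 61.9 CPM in mutants and 48.5, 93.8 and 96.6 CPM in wild type. The other 7 members were thus lower on average by 22.7 CPM in mutants, with overlap (exact permutation p = 0.4, n = 3 each), and higher by 3.40 CPM in the mutant of batch 1. With total counts they differed by −45.2 CPM on average and by −22.3 CPM in batch 1, again with overlap (exact permutation p = 0.2, n = 3 each).

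The genes whose profiles over the 6 libraries were most like those of Isg15 and Ube2l6 were sought among 459 genes with a mean of at least 5 CPM. Likeness was the root mean square difference of log2 CPM after centring each gene on its own mean. For Isg15 these were Cd24a (a surface glycoprotein, 0.104), Marchf8 (a membrane-bound ubiquitin ligase, 0.139), Tspan33 (a tetraspanin of red cell precursors, 0.144), Gpx1 (a glutathione peroxidase, 0.151) and Psmd4 (a ubiquitin receptor of the proteasome, 0.156). The median over all ranked genes was 0.465. Among members, Irf7 ranked 303 and Ube2l6 ranked 411 in likeness to Isg15. Of 2 other abundant interferon-stimulated genes, Isg20 ranked 26 and Rsad2 ranked 213. For Ube2l6 the nearest were Rplp0 and Rplp2 (proteins of the ribosomal stalk, 0.0487 and 0.0549), Oaz1 (antizyme, which limits polyamines, 0.0618), its pseudogene copy Oaz1-ps (0.0681) and Nudcd3 (a chaperone cofactor, 0.0751). The median was 0.4245, and Rsad2 ranked 140, Isg20 375 and Isg15 420. Reads of Oaz1 and Oaz1-ps may be shared, so these 2 are uncertain one by one. Of the members only Isg15, Ube2l6 and Irf7 were abundant enough to be ranked, and none of these was among the nearest 5 of another.

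**Figure D4:**
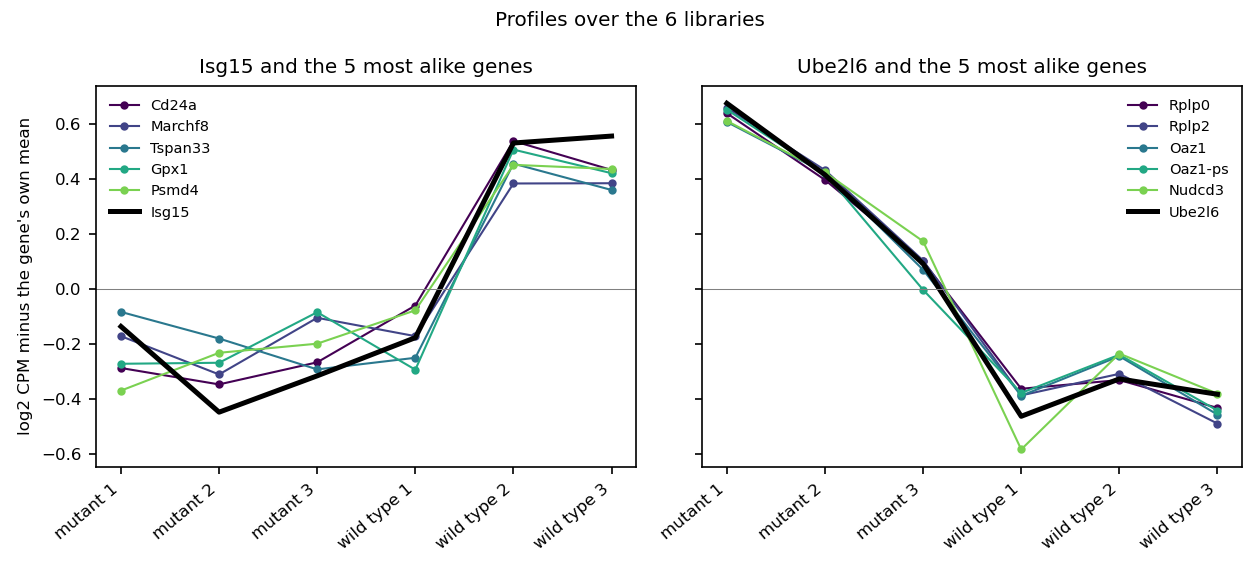
Log2 CPM of Isg15 (left) and Ube2l6 (right), in black, and of the 5 genes most like each, minus the gene's own mean (y axis), in the 3 mutant and 3 wild-type libraries; lines join libraries for reading only. Isg15 and its likes are high in wild type 2 and 3 alone, while Ube2l6 and its likes are above their mean or near it in all mutants and below it in all wild-type libraries.

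Other genes of the pathway were described by 7 further lists. These interferon lists held 164 matched genes, and 53 could be tested. Of these, 0 were called higher and 1 lower (edgeR; DESeq2 called 0 in either direction), where 5.99% and 1.06% of all genes tested were. An unadjusted p under 0.05 was found for 8 of the 53, and for 18.5% of all genes tested. The other known ISG15 ligases, Trim25 and Arih1, stood at −0.12 and −0.47 in log2 fold change (edgeR adjusted p = 0.910 and 0.557). Interferon ligands were nearly absent, with 16 of 19 genes at 0 in all libraries and 1 count over the mutants against 3 over wild type. Of 15 receptor and signalling genes 9 were tested and 0 called, with a median log2 fold change of −0.31 (−0.76 with total counts). Il10rb, a shared receptor chain for interferon lambda, had −1.04 (edgeR adjusted p = 0.0709; the term for batch brought it to 0.0363). Ifnar2, the type I interferon receptor chain, had −0.47 and the kinases Jak2 and Jak1 −0.58 and −0.31 (adjusted p = 0.336, 0.385 and 0.561). Among 10 genes for other interferon regulatory factors and IRF2-binding proteins, Irf1 and Irf2 were tested and had 0.44 and 0.15 (adjusted p = 0.524 and 0.884). Of 15 nucleic acid sensor genes, Tbk1 and Myd88 were tested and had −0.24 and 0.020 (adjusted p = 0.856 and 0.984).

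Among 89 other interferon-stimulated genes, 31 were tested, with 0 higher, 1 lower and a median log2 fold change of −0.0070, close to the −0.06 of all genes. Tgtp2, an interferon-induced GTPase with a near-identical copy in Tgtp1, fell, with a log2 fold change of −1.29 (SE 0.34, edgeR adjusted p = 0.0223). It had 13, 8 and 14 counts in mutants 1, 2 and 3, against 29, 42 and 52 counts in wild type 1, 2 and 3. Its call ended without mutant 2, mutant 3, wild type 2 or wild type 3 (edgeR adjusted p up to 0.161) and with DESeq2 (0.0847). Slfn2, a regulator of lymphocyte quiescence, had 0.75 and Irgm2, an immunity-related GTPase, 0.97 (edgeR adjusted p = 0.0711 and 0.138).

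Isg20 and Rsad2 stood with Isg15 and Ube2l6 as abundant interferon-stimulated transcripts of these cells. Isg20, an exonuclease, averaged 281 CPM per kilobase in mutants and 377 in wild type. It had 345, 351 and 291 CPM in mutants 1, 2 and 3, against 376, 507 and 439 CPM in wild type 1, 2 and 3. The groups did not overlap, and 11.1% of all genes tested were lower without overlap. The log2 fold change of Isg20 was −0.42 (SE 0.16, edgeR adjusted p = 0.148), and −0.92 with total counts (adjusted p = 5.4e-05). Rsad2, the antiviral enzyme viperin, averaged 157 CPM per kilobase in mutants and 136 in wild type. Rsad2 had 610, 623 and 548 CPM in mutants 1, 2 and 3, against 449, 541 and 551 CPM in wild type 1, 2 and 3, with overlap and a log2 fold change of 0.21 (SE 0.15, edgeR adjusted p = 0.538). Of these 4 genes only Ube2l6 was called, and the means of Ube2l6 and Rsad2 were higher in mutants while those of Isg15 and Isg20 were lower. With total counts the value of Rsad2 turned to −0.28.

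In the list of interferon-inducible antigen processing genes, 7 of 14 were tested and 0 called, with a median log2 fold change of 0.23 that turned to −0.25 with total counts. B2m, the light chain of class I molecules, had a log2 fold change of 0.52 and H2-K1, a class I heavy chain, 0.39 (edgeR adjusted p = 0.136 and 0.290). Tapbp, which loads peptide on class I, had −0.51 and Psme1, a proteasome activator, 0.47 (edgeR adjusted p = 0.400 and 0.583).

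**Figure D5:**
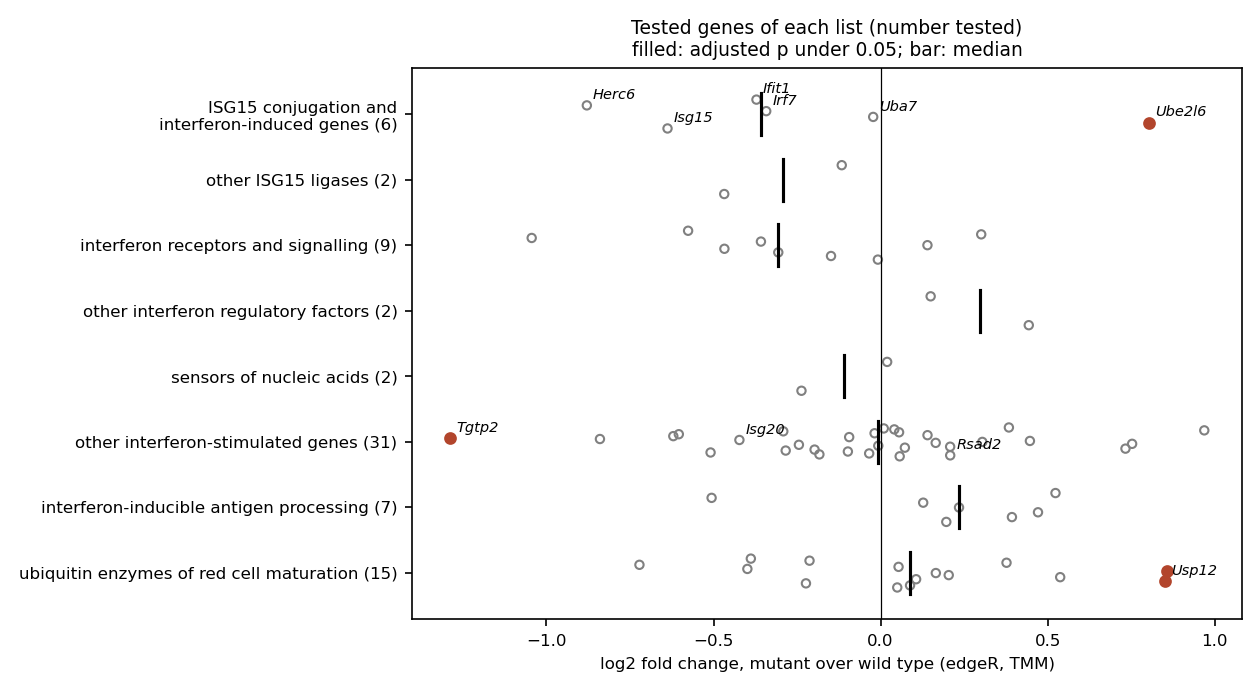
Log2 fold change, mutant over wild type, of each tested gene (x axis) in the ISG15 set and in each other list (y axis, number tested in brackets), with filled points for an edgeR adjusted p under 0.05 and black bars for the list median. The ISG15 set spans −0.88 (Herc6) to 0.80 (Ube2l6), and the other interferon-stimulated genes lie on both sides of 0 with Tgtp2 the 1 call.

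Genes of the ubiquitin system in red cell maturation gave a second comparison for Ube2l6. Of 17 such genes 15 were tested, with a median log2 fold change of 0.088. Among them 2 were called higher and 0 lower, where 5.99% and 1.06% of all genes tested were. With total counts 0 were called higher and 5 lower, where 4.07% and 8.68% of all genes tested were. The median of the list was then −0.41. Usp12, a deubiquitinase, had a log2 fold change of 0.85 (SE 0.23, edgeR adjusted p = 0.0305). Its call ended with total counts (log2 0.32, edgeR adjusted p = 0.341), which was not so for Ube2l6. It was called without mutant 3 but not without any other library (edgeR adjusted p up to 0.194). Ube2r2, another conjugating enzyme, averaged 376 CPM per kilobase in mutants and 259 in wild type, with a log2 fold change of 0.54 (SE 0.16, edgeR adjusted p = 0.0535). Ube2o, a conjugating enzyme that clears proteins from maturing red cells, averaged 45.2 CPM per kilobase in mutants and 39.2 in wild type (log2 fold change 0.20, SE 0.16, edgeR adjusted p = 0.561). Trim10, an erythroid ubiquitin ligase, had −0.72 (edgeR adjusted p = 0.0711; the term for batch brought it to 0.00521). Ube2l3, the closest relative of Ube2l6 and a ubiquitin-conjugating enzyme, averaged 0.776 CPM per kilobase in mutants and 0.912 in wild type, far below Ube2l6.

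The marker sums of red cells, of T and NK cells and of hepatocytes differed between the groups without overlap, while those of the other cells listed overlapped. Red cell markers, mostly globins, summed to 8.682e+05 to 1.278e+06 CPM in mutants and 7.437e+05 to 8.26e+05 CPM in wild type with TMM scaling. Of 12 tested red cell genes 1 was called higher and 0 lower, where 5.99% and 1.06% of all genes tested were. T and NK cell markers summed to 1.87 to 3.62 CPM in mutants and 3.94 to 9.07 CPM in wild type. Of 12 listed genes 3 were tested and 2 called lower, where 1.06% of all genes tested were. B cell markers summed to 12.6 to 28.9 CPM in mutants and 21.5 to 46.9 CPM in wild type, with 0 of 9 tested genes called. Neutrophil markers summed to 91.8 to 130.4 CPM and 90.2 to 119.7 CPM (0 of 5 tested called, with Camp at 0 in all libraries but wild type 1). Monocyte and macrophage markers summed to 12.7 to 28.0 CPM and 9.88 to 13.65 CPM (0 of 2 called, C1qb at 0 throughout), in mutants and wild type. Plasmacytoid dendritic cells, which carry much IRF7, had marker sums of 0.0645 to 0.420 CPM in mutants and 0.244 to 0.945 CPM in wild type. Their marker Siglech had 0 counts in all libraries but wild type 2. Platelet markers summed to 5.63 to 15.66 CPM in mutants and 7.51 to 14.53 CPM in wild type, with 0 of 5 tested genes called. Hepatocyte markers summed to 110.5 to 248.5 CPM in mutants and 0.103 to 4.73 CPM in wild type. Of 12 tested hepatocyte genes 10 were called higher, where 5.99% of all genes tested were. Exocrine pancreas markers summed to 0.0841 to 0.129 CPM in mutants and 0 to 17.0 CPM in wild type, with 323 of the 325 wild-type counts in wild type 1 and 0 of 10 genes tested. The part of these transcripts in the values of Isg15, Irf7, Ifit1 and Ube2l6 was not tested.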

How the data were processed

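Per the labels' protocols, red cells from single animals were pelleted through Ficoll, checked by flow cytometry and used for polyadenylated RNA libraries. The authors deposited raw counts per gene, 1 file per library, per the file headers. The submitters' processing notes name CASAVA 1.8.2, Subread, featureCounts and mm10; the strand setting is not given in the sources used here. The 8 members, the lists and the tests were chosen with earlier results of these data known, so no pattern already seen in them is independent support. Symbols came from RefSeq, and 25293 of 27179 genes had one; the 1886 others, with 1.39% of counts, stayed in the fits.

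The counts of all genes were fitted with edgeR 4.0.16 in R 4.3.3 (robust quasi-likelihood F test, TMM, filterByExpr by group, no term but genotype). Adjustment was by Benjamini-Hochberg over 2823 genes, with calls at an adjusted p under 0.05, and 6 of the 8 members passed the filter. Dividing the log2 fold change by the root of its F value gave the standard error. Within-batch log2 values used a prior count of 2. For single values, exact permutation tests (two-sided) were used. A count of 0 allows 3 counts, which is 0.190 to 0.205 CPM of the total, for counting error only, since reads had no molecular identifiers. Each batch number in the labels pairs 1 mutant with 1 wild-type library; deviations of such pairs from their group means correlated at −0.116, −0.0855 and −0.0439 across genes. Alternatives were a replicate block (batch) in edgeR and in DESeq2 1.42.0, DESeq2, limma-voom (limma 3.58.1), RLE scaling, total counts, globins removed, other filters, and each library or batch left out. The code was tested on simulated data. The genes named were all members, up to 4 genes per list with the smallest p, and the 5 nearest profiles. Genes named outside this rule (Rsad2, Ube2l3, Tfrc and single marker genes) were chosen after their values were seen. One gene that the rule took is not reported here.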

Additional observations from a re-analysis of the deposited data

How the results depend on the processing

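Over all genes, 169 were higher and 30 lower. The higher count was 382 with no filter and 66 with a mean count of at least 50, where fewer genes are tested. The lower count was 19 with RLE scaling, 245 with total counts, 82 with no filter, 49 with the mean count filter, 11 with DESeq2, 60 with the replicate block in edgeR and 3 with it in DESeq2, 19 without batch 2, 3 without batch 3, and 8 to 77 when single libraries were left out.

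Of the members, 1 was called higher and 0 lower. The higher call became 0 without batch 1 or batch 2, and 0 to 1 without single libraries. The lower count became 1 (Isg15) with total counts, the mean count filter, the replicate block in edgeR, or without batch 1, and 0 to 1 without single libraries. In the other interferon lists, the 0 higher calls became 1 with RLE scaling and 0 to 1 without single libraries. The 1 lower call became 3 with total counts and with the replicate block in edgeR. It became 0 with DESeq2 with or without the block, limma-voom, or without batch 2 or 3, and 0 to 2 without single libraries.

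The log2 fold changes of Ube2l6, Isg15, Herc6, Irf7 and Ifit1 kept their sign under every alternative run. That of Uba7 turned positive with RLE scaling (0.033), no filter (0.019), DESeq2 (0.032, and 0.043 with the block), limma-voom (0.00027), without batch 2 (0.15) or batch 3 (0.11), and without mutant 1, mutant 2, wild type 2 or wild type 3 (−0.18 to 0.12 over all single libraries left out). The difference in the members' summed level turned from 3030 to −22.7 CPM without Ube2l6. Every mutant exceeded every wild-type library in the Ube2l6 to Isg15 ratio. Pairing by batch or leaving out single libraries therefore could not turn its direction, and 3 against 3 libraries cannot give a p below 0.1. The cause of these shifts was not tested. Depth limits Herc6, Usp18 and Ifit3, with 0 to 16 counts per library.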
